A study of Mus musculus with 24 samples.

Results

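The comparison was between muscle sheets paced with blue light at 4 Hz and sheets that received no light. Its members were chosen by their labels alone: the 6 libraries labelled 4 Hz and the 6 labelled control, 12 of the 24 libraries in the series. Every sheet in both groups was grown from ChR2::tdTomato C2C12 cells, a mouse myoblast line that carries channelrhodopsin-2, a cation channel opened by blue light, together with a red fluorescent reporter. The controls therefore carried the channel too. The sheets were differentiated on a fibrin hydrogel in medium with horse serum and IGF-1 until RNA was extracted on day 14, and the light group was stimulated for 30 min a day. All sheets descend from a single engineered line without motor neurons or blood vessels, and per the study's text the sheets of every condition also twitched on their own. So the comparison set lit and paced muscle against unlit muscle that contracted on its own, not active against silent muscle. No group received light without pacing, so blue light and pacing cannot be told apart in any difference below. The remaining 12 libraries came from sheets paced at 1 Hz or 10 Hz and were used here to estimate the spread of each gene and to set the 4 Hz values beside the other frequencies.

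Opening channelrhodopsin-2 depolarises the muscle membrane, which makes the voltage sensor in the transverse tubule open the ryanodine receptor, the calcium channel of the sarcoplasmic reticulum. The released calcium binds troponin and lets myosin pull on actin, and the SERCA pump then returns it to the store. Repeated calcium pulses also activate calcineurin and calmodulin-dependent kinases, which act on the NFAT and MEF2 transcription factors of muscle. Contraction in addition induces short-lived early genes such as Fos and Egr1 within minutes to hours, and cells answer unfolded protein with one set of chaperones in the cytosol and another in the endoplasmic reticulum.

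The control libraries held 4.20 to 7.65 M estimated counts (M, 1e6 counts) and the 4 Hz libraries 7.55 to 11.5 M, a difference of 0.70 on the log2 scale (2-sided exact permutation test, p adjusted over the 7 composition measures = 0.0101). The cells expressed the markers of muscle fibers: the 12 marker genes together took 6300.1 to 8204 CPM (counts in 1e6 counts of a library) in the controls and 10138 to 15849.5 at 4 Hz. The 8 endothelial markers together took at most 2.33 CPM in any of the 12 libraries. The summed macrophage and leukocyte markers took 93.7 to 141 CPM in control and 77.1 to 113 CPM at 4 Hz, with 3 of 10 at 0 in every library. The neuron and glia markers took 158 to 403 CPM in control and 111 to 118 CPM at 4 Hz, and 3 of the 6 tested (Nefl, Nefm and Gap43) were lower. In a bulk library, more cells of a type and more RNA per cell cannot be told apart.

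The 4 Hz libraries held a smaller share of RNA species that end without a poly(A) tail. The summed share of 30 small RNAs transcribed without a tail (the 7SK, 7SL, RNase P and RNase MRP RNAs, small nuclear RNAs and their kin) was 98.6 CPM in the lowest, 133.6 CPM in the median and 169.1 CPM in the highest control library, against 19.5, 25 and 50.9 CPM at 4 Hz. The groups did not overlap: the lowest control share had a 95% exact binomial interval of 90.5 to 107.3 CPM and the highest 4 Hz share one of 46.1 to 56.2 CPM, intervals that cover counting error only. The mean difference was -2.31 on the log2 scale. Rn7sk, the 7SK RNA that holds the elongation factor P-TEFb in check, gave 37.1, 62.4 and 79.3 CPM in the lowest, median and highest control libraries and 6.97, 10.7 and 21.2 CPM at 4 Hz. Rpph1, the RNA of RNase P, gave 1.75, 3.6 and 5.23 CPM and 0.271, 0.570 and 1.06 CPM. Both groups of 6 were apart for each of these RNAs. Nuclear-encoded ribosomal RNA moved the same way, from 0.855% to 1.44% of counts in the controls to 0.170% to 0.591% at 4 Hz, a difference of -2.03 on the log2 scale. Each of these 2 shares reached the smallest p that 6 against 6 libraries can give (exact permutation test, p = 0.00216, adjusted p = 0.00758).

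Nuclear long noncoding RNAs, of which Malat1 and Neat1 are retained in the nucleus, fell from 0.203% to 0.325% of counts in the controls to 0.120% to 0.220% at 4 Hz. That difference was -0.66 on the log2 scale (exact permutation test, adjusted p = 0.0227), and the groups overlapped. Of 8 tested members 4 were lower, among them Malat1 at -0.69 ± 0.23 and Tug1 at -0.53 ± 0.16 on the log2 scale, and 1, Pvt1, was higher at 0.78 ± 0.10. The number of lower members ranged from 0 to 4 when 1 library was left out, with 0 without control replicate 1 or 6 or 4 Hz replicate 1 or 6. With the covariate none of the calls was kept, and Malat1 stood at 0.27. The share of replication-dependent histones differed by -0.21 (adjusted p = 0.144), that of all noncoding genes by 0.08 (adjusted p = 0.144) and that of mitochondrial genes by 0.11 (adjusted p = 0.690), and none of these 3 shares passed the exact test.

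The histone genes give a view of the same property at the level of single transcripts, because a replication-dependent histone messenger normally ends in a short stem-loop instead of a tail. Of 16 tested histone genes 1 was higher and 3 were lower, and 4 of the 16 had a stem-loop in the last 150 bases of their annotated transcript. A stem-loop was found in 0.331% of 13293 transcripts of tested genes searched the same way for CTTT, any 2 bases and AG, with at least 3 of the 4 bases before pairing with the 4 after. All 4 stem-loops found are shown, with the letters of the whole hairpin in capitals (GENCODE M39 on GRCm39, 5′ to 3′ on the RNA strand).
H2bc12, chr13:22220470-22220485, plus strand: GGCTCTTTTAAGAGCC
H2ac24, chr13:22017199-22017214, minus strand: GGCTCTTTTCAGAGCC
H2ac18, chr3:96153348-96153363, plus strand: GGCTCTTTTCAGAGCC
H2ac19, chr3:96147100-96147115, minus strand: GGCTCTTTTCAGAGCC
H2bc12 was higher at 4 Hz by 0.81 ± 0.25 on the log2 scale (edgeR adjusted p = 0.011), and the other 3 were not called: H2ac24 stood at 0.68 ± 0.29, H2ac18 at -0.32 ± 0.32 and H2ac19 at -0.63 ± 1.02. Genes with the hairpin thus lay on both sides of 0. The 3 lower histone genes, H2bc6 (-1.72 ± 0.28), H1f3 (-1.39 ± 0.31) and H2bc21 (-1.04 ± 0.23), have annotated transcripts of 3538, 7425 and 2620 bases without such a hairpin near the end. Only the canonical annotated transcript of each gene was searched. A missing hairpin can therefore reflect where that annotation ends, and it does not show that the messenger has a tail. None of the 4 histone calls was kept in the fit with a covariate described next. Histone copies are near-identical, so reads shared between them make each single value uncertain.

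**Figure D1:**
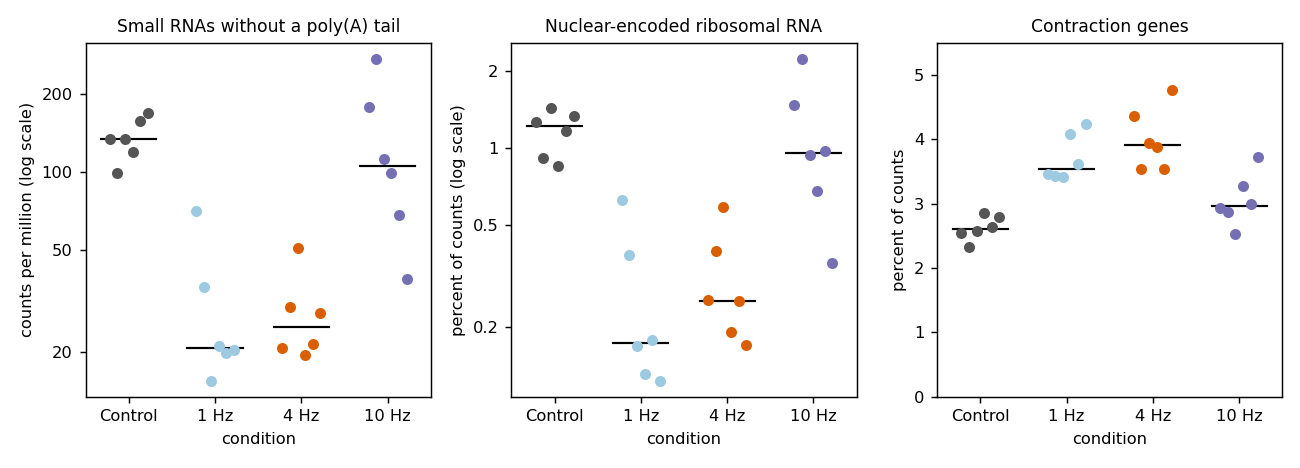
Share of counts per library in 3 groups of genes, by condition (6 points per condition, 1 per library, bar at the median; the first 2 axes are logarithmic). The 4 Hz libraries lie below all 6 controls for the small RNAs without a tail (19.5 to 50.9 against 98.6 to 169.1 CPM) and for ribosomal RNA, and above all 6 for the contraction genes (3.54% to 4.77% against 2.33% to 2.86%).

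Per the labels, libraries were made by poly(A) selection, with ribodepletion for low-input samples that are not named. Whether the share of tail-less RNA followed the preparation, the RNA input or the light was not tested, and since the controls and the 4 Hz libraries did not overlap in that share, the share and the condition cannot be told apart between them. Its median was 20.8 CPM at 1 Hz (15.6 to 70.6) and 105.7 CPM at 10 Hz (38.5 to 273.4), so the 1 Hz libraries lay near the 4 Hz ones and the 10 Hz libraries spread from near the 4 Hz ones to above the controls. A second fit therefore had the log2 share of small RNAs as a covariate, and how many calls it kept is given with the lists. That fit called 130 genes higher and 84 lower, 1.61% of the genes tested, and 190 of the genes called without the covariate kept their call. Of the genes called without it, 61 changed sign.

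Across the 13318 genes tested, 1396 were higher at 4 Hz and 1280 lower, at an adjusted p below 0.05 and a difference of more than 0.5 on the log2 scale in edgeR's quasi-likelihood test. These are 10.5% and 9.61% of the genes tested, 20.1% together. The changes were mostly modest: the median called change was 0.79 for higher and -0.77 for lower genes on the log2 scale, 423 and 396 genes passed a log2 difference of 1, and 47 and 46 passed 2. The interquartile range over all genes was -0.27 to 0.27, with a median of -0.014. The balance of calls rests on the scale: 52.2% of the calls were higher with TMM scaling, 35.7% when libraries were scaled by total count and 24.5% with limma on log2(TPM + 1), where the median of all genes moved to -0.11 and -0.16. For 2212 genes, 16.6%, the 6 libraries of one group lay entirely above or below the 6 of the other, among them 822 of the higher and 677 of the lower genes. The higher genes were expressed at more than the lower ones, with a median of 16.8 against 9.13 CPM over the 12 libraries. The higher genes took 9.64% of counts in the average control and 15.8% in the average 4 Hz library, while the lower genes went from 6.16% to 3.07%.

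**Figure D2:**
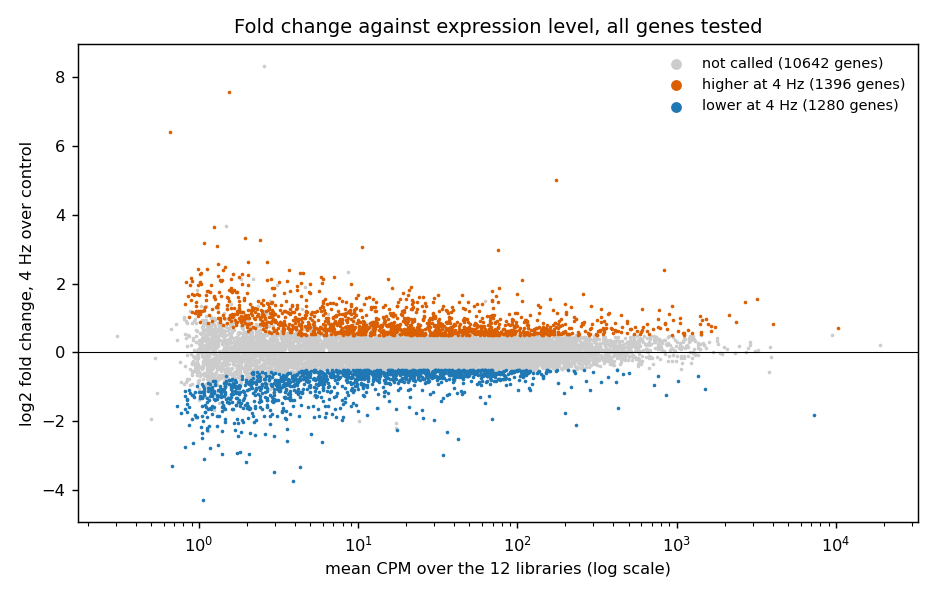
Each point is 1 of the 13318 genes tested, placed by its mean CPM over the 12 libraries (logarithmic axis) and its log2 fold change at 4 Hz over control; orange and blue mark the 1396 higher and 1280 lower genes. Higher and lower calls are near-equal in number, and among the 2664 genes with a mean of 86.9 CPM or more 258 are higher and 88 lower.

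Genes of the contractile apparatus were higher at 4 Hz. Over all genes tested 10.5% were higher, and 16.6% had groups apart in either direction. The 67 genes of the 5 lists that cover myosin heavy and light chains, troponins, actins and the Z-disc took 2.33% to 2.86% of all counts in the controls and 3.54% to 4.77% at 4 Hz. All 8 tested myosin heavy chains, the motor proteins, were higher, with a median of 1.10 on the log2 scale against -0.014 over all genes. Myh2, the fast oxidative isoform, went from 20.0, 27.6 and 29.1 CPM in the lowest, median and highest control to 49.3, 70.6 and 104 CPM at 4 Hz, a change of 1.46 ± 0.19 (edgeR adjusted p = 2.4e-06). Myh3, the embryonic isoform, went from 238, 327 and 540.0 to 747, 813 and 1092 CPM (1.26 ± 0.19), and the slow isoform Myh7 changed by 1.13 ± 0.20. Thus fast, slow and immature isoforms were all higher, and the groups were apart for 7 of the 8, the exception being Myh4. Among myosin light chains 6 of 7 were higher with a median of 0.89. They included the slow and cardiac Myl2, from 7.88, 11.6 and 12.9 to 14.7, 34.1 and 46.4 CPM (1.53 ± 0.23), and the abundant fast-fiber Mylpf (1.10 ± 0.13).

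Troponins and tropomyosins, which switch the thin filament on when calcium binds, were higher in 8 of 10 tested genes with a median of 0.86. Tnni2, the fast inhibitory troponin, gave 355, 476 and 529 CPM in control and 798, 1119 and 1384 CPM at 4 Hz (1.23 ± 0.13), and its slow counterpart Tnni1 changed by 1.06 ± 0.15. All 10 were apart between the groups, including Tpm1 and Tpm3, whose changes of 0.47 and 0.40 stayed under the threshold of 0.5. Of 9 actins and alpha-actinins the 5 that belong to muscle were higher, with Acta2 at 1.25 ± 0.19 and Actn2 at 1.23 ± 0.17. The cytoskeletal members Actb (-0.31), Actg1 (-0.17), Actn1 (0.12) and Actn4 (-0.16) did not pass. In the Z-disc, titin and M-band list 17 of 29 were higher and none lower (median 0.67). Csrp3, the muscle LIM protein of the Z-disc, went from 46.0, 55.8 and 66.7 to 128, 161 and 181 CPM (1.49 ± 0.15), and Myot, which cross-links actin there, changed by 1.41 ± 0.17.

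**Figure D3:**
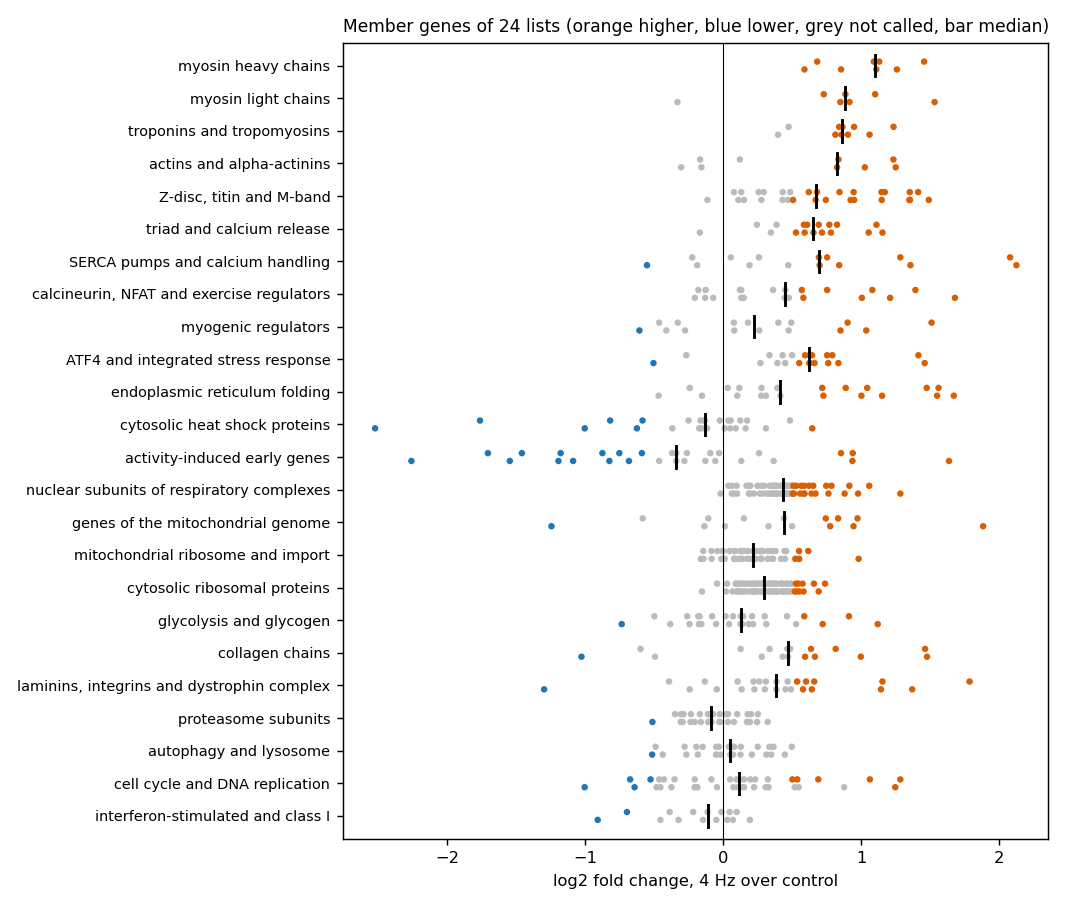
Log2 fold change at 4 Hz over control for the tested members of 24 gene lists (1 point per gene; orange higher, blue lower, grey not called; black bar at the list median). Contractile lists lie to the right of 0 with few exceptions, the endoplasmic reticulum list leans right, and the cytosolic heat shock and early gene lists have long tails to the left.

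Genes that release and recover calcium were higher too, beside 10.5% higher and 9.61% lower over all genes. In the triad list 13 of 17 genes were higher and none lower (median 0.65). The calsequestrins, which store calcium inside the sarcoplasmic reticulum, led it: Casq2 went from 532, 561 and 659.5 to 1146, 1205 and 1402 CPM (1.11 ± 0.10) and Casq1 changed by 1.15 ± 0.15. The ryanodine receptor Ryr1 changed by 0.58 ± 0.13 (edgeR adjusted p = 0.00074). Among pumps and calcium handling genes 8 of 15 were higher and 1 was lower. The largest changes were in small membrane peptides that bind and slow the SERCA pump: Pln (phospholamban) at 2.12 ± 0.40 and Mrln (myoregulin) at 2.08 ± 0.31. Both were scarce, with Pln at 0.581 to 1.67 CPM in control and 3.29 to 6.15 CPM at 4 Hz. The plasma membrane pump Atp2b4 was lower (-0.55 ± 0.13). Of 14 membrane ion channel genes 5 were higher, led by the potassium channel Kcnc1 (1.81 ± 0.36, from a median of 0.797 to 2.48 CPM) and the sodium pump subunit Atp1b2 (1.21 ± 0.24).

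With the small RNA share as covariate, 0 of the 8 myosin heavy chain calls, 2 of 6 myosin light chain calls, 5 of 8 troponin and tropomyosin calls, 0 of 5 actin calls, 8 of 17 Z-disc calls, 2 of 13 triad calls, 0 of 9 pump and calcium handling calls and 0 of 5 ion channel calls were kept. The list medians stayed above 0 in that fit, at 0.65, 0.74, 0.67, 0.37, 0.40, 0.26, 0.45 and 0.39 in the same order. On log2(TPM + 1) 7 triad genes and 2 ion channel genes were called higher.

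Regulators tied to calcium and to muscle identity moved in part, beside 10.5% higher and 9.61% lower over all genes. In the list of calcineurin, NFAT and exercise regulators 8 of 21 were higher and none lower (median 0.44). Nfatc1, the calcineurin-dependent transcription factor, went from 10.8, 15.7 and 18.7 to 28.5, 47.2 and 71.6 CPM (1.68 ± 0.23, edgeR adjusted p = 3.9e-06). Esrrg, a nuclear receptor of oxidative muscle, changed by 1.39 ± 0.31, Ppargc1a (PGC-1alpha) by 0.58 ± 0.20, and Rcan1, a calcineurin target, by 0.15 without passing. None of the 8 calls was kept with the covariate, where the list median was 0.03.

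Of 16 myogenic regulators 4 were higher and 1 lower, where 10.5% and 9.61% of all genes were. Myod1, the factor that commits cells to muscle, went from 24.5, 31.6 and 53 to 83.5, 99.4 and 148 CPM (1.51 ± 0.23) and the differentiation factor Myog changed by 0.85 ± 0.15. Pax7, which marks reserve myoblasts, changed by 1.04 ± 0.36, while Myf5 was lower (-0.61 ± 0.18). The groups overlapped for Pax7, at 0.378 to 3.77 CPM in control and 2.03 to 6.02 CPM at 4 Hz. Among fusion genes 5 of 11 were higher, led by Cav3 of the muscle caveolae (1.29 ± 0.17) and the adhesion molecule Ncam1 (0.82 ± 0.13), and Myof was lower (-0.61 ± 0.15). In the list of the acetylcholine receptor and synapse 5 of 11 were higher, with Colq, the collagen tail that anchors acetylcholinesterase, at 1.17 ± 0.23 and Musk, the kinase that clusters the receptor, at 0.75 ± 0.12. The median of the myogenic regulators was 0.22, and on log2(TPM + 1) it was -0.01. With the covariate none of the calls in these 3 lists was kept, the myogenic median was 0.04 and Myod1 stood at 0.72 (edgeR adjusted p = 0.24).

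Chaperones split by compartment. The endoplasmic reticulum folding genes were higher in 10 of 21 tested members and lower in none, with a median of 0.41. Over all genes 10.5% were higher. Hspa5 (BiP), the main chaperone of that compartment, went from 1374, 1636 and 1829 to 3561, 4952 and 5676 CPM (1.55 ± 0.14, edgeR adjusted p = 5.1e-08). Calr, the lectin chaperone and calcium buffer, went from 1311, 1410.5 and 1551 to 2863, 4091 and 4859.9 CPM (1.47 ± 0.14). Sdf2l1 (1.67 ± 0.23) and Manf (1.56 ± 0.17), both partners of Hspa5, had the largest changes of the list. Several genes of the same compartment that serve disposal of misfolded protein did not pass, with Dnajb9 at -0.24, Edem1 at -0.47, Syvn1 at 0.03 and Sel1l at 0.27. Herpud1, which also serves disposal, was higher, at 172 to 272 CPM in control and 361 to 552 CPM at 4 Hz. In the covariate fit 4 of the 10 calls were kept, Hspa5 (1.08) and Calr (1.12) among them. The number of higher members was 10 whichever of the 12 libraries was left out, and also 10 with limma on log2(TPM + 1).

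Several promoters of this list carry the endoplasmic reticulum stress element, CCAAT followed after 9 bases by CCACG, to which NF-Y and ATF6 are known to bind. Searched on both strands in the 300 bases around the start (RefSeq, GRCm38.p6), it was present in 9 of the 19 members with a promoter sequence, and in 0.119% of all 32851 promoters. The windows below are those of the higher genes with 1 copy, with the fixed letters of the element in capitals and 12 bases on each side. Each reads 5′ to 3′ on the strand of its gene, so CGTGG before ATTGG is the element on the opposite strand.
Hspa5, chr2:34772013-34772055, plus strand: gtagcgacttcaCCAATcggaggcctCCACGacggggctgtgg
Calr, chr8:84847063-84847105, minus strand: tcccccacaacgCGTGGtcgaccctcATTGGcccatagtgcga
Pdia6, chr12:17266479-17266521, plus strand: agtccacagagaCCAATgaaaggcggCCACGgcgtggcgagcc
Hsp90b1, also higher (1.0 ± 0.13), held 2 copies. In all, 4 of the 9 genes with the element were higher at 4 Hz, as were 4 of the 10 without it. The other 5 with the element, Canx (0.31), Dnajc3 (0.39), Creld2 (0.28), Syvn1 (0.03) and Ero1b (-0.15), were not called. A motif match is a description of the sequence and not a measurement of binding.

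The list of cytosolic heat shock proteins went the other way or did not move, apart from 1 gene. It also holds the mitochondrial chaperonin genes Hspd1 and Hspe1 and the heme oxygenase Hmox1, so it is not purely cytosolic. Of 27 tested genes 6 were lower, beside 9.61% of all genes, and 1, Hmox1 (0.64 ± 0.11), was higher. Hspa1a, an inducible Hsp70, went from 52.0, 73.2 and 91.9 to 6.97, 10.3 and 20.7 CPM (-2.52 ± 0.51) and Hspa1b from 246, 289 and 396 to 63.1, 91.8 and 112 CPM (-1.76 ± 0.32). The coding sequences of this pair are almost the same, so the split of reads between them is uncertain while their joint direction is not. The co-chaperone Hsph1 changed by -1.0 ± 0.19 and Hsp90aa1, the inducible Hsp90, by -0.82 ± 0.17 (edgeR adjusted p = 0.00056). Their constitutive relatives were not called, with Hspa8 at -0.03 and Hsp90ab1 at 0.05. The chaperonin subunits Tcp1 (0.05), Cct2 (-0.17) and Cct5 (0.17) were not called. None of the 6 lower calls was kept with the covariate, where Hspa1a stood at -0.91 (edgeR adjusted p = 0.63), and at 10 Hz the 5 genes other than Hspa1l differed from control by -0.16 to -0.05.

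The heat shock element, here GAA, any 2 bases and TTC, to which HSF1 is known to bind, was found on either strand in 11 of the 22 members with a promoter sequence and in 7.86% of all promoters. Of those 11 genes 4 were lower at 4 Hz and none higher, and of the 11 without it 1 was lower. The windows of the 4 lower genes are shown, with the fixed letters in capitals. Hspa1a and Hspa1b share the same 32 bases, and the Bag3 window stops at the end of the promoter sequence.
Hspa1a, chr17:34972241-34972272, minus strand: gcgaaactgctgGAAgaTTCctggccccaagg
Hspa1b, chr17:34959323-34959354, minus strand: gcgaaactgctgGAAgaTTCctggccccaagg
Hsph1, chr5:149636276-149636307, minus strand: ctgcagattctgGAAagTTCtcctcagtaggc
Bag3, chr7:128523613-128523632, plus strand: tggatgggaccaGAAgtTTC
The 7 other genes with the element included Hspd1 (-0.25), Hspe1 (0.12) and Dnaja1 (-0.37), which were not called. The small heat shock proteins split within their own list: 2 of 7 were higher, the muscle forms Hspb7 (1.32 ± 0.16) and Hspb3 (1.11 ± 0.21), and the HSF1 target Hspb1 was lower (-0.87 ± 0.16, from 490.1, 535 and 641 to 220.2, 294 and 359 CPM), and none of the 3 calls was kept with the covariate.

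Targets of ATF4, the factor of the integrated stress response that raises amino acid supply, were higher in 13 of 21 members and lower in 1, with a median of 0.62. Over all genes 10.5% were higher. The higher targets included the serine synthesis enzyme Phgdh, from 94.2, 112 and 118 to 201, 272 and 417 CPM (1.41 ± 0.15), and the cystine transporter Slc7a11 (1.46 ± 0.23). Atf4 itself stood at 0.39 and Trib3 at 0.33, both not called, and Sesn2 was lower (-0.51 ± 0.18). Of the 13 calls 2 were kept with the covariate, and on log2(TPM + 1) 6 members were called higher. The amino acid response element, here TGATG, any base and AA on either strand, was present in 6 of 19 matched promoters of the list and in 3.97% of all promoters. The windows of 3 higher genes are given, with the fixed letters in capitals.
Slc7a11, chr3:50443641-50443691, minus strand: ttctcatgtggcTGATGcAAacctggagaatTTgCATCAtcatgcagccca
Asns, chr6:7693213-7693244, minus strand: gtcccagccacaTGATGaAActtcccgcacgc
Chac1, chr2:119351037-119351068, plus strand: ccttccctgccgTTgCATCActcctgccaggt
Slc7a11 held 2 copies, 1 on each strand, and Vldlr (0.62 ± 0.12), also higher, held 1. Of the 6 genes with the element 4 were higher, and of the 13 without it 8.

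**Figure D4:**
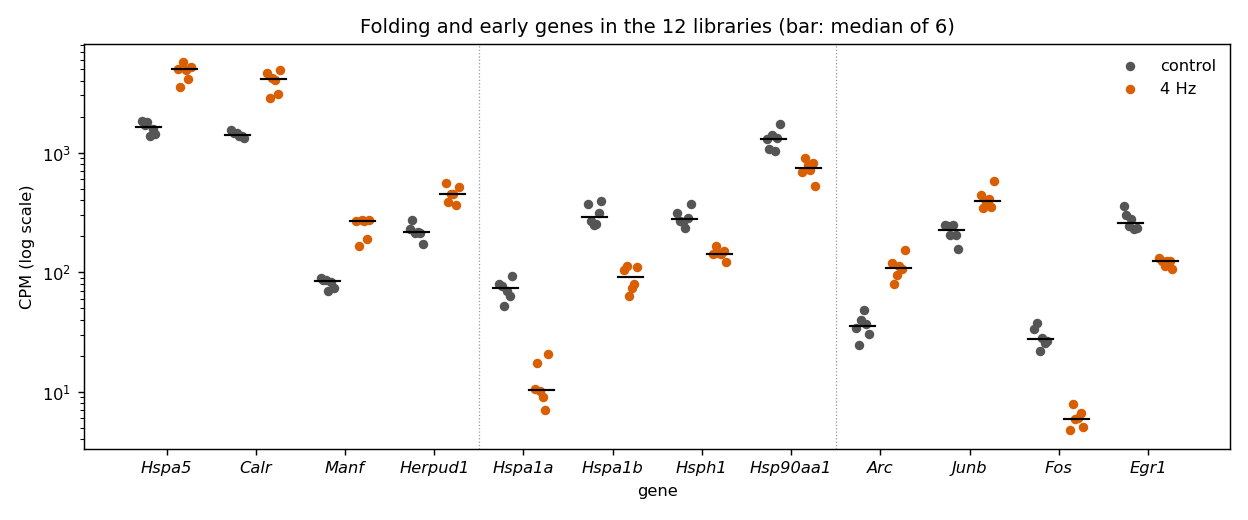
CPM in each of the 12 libraries (logarithmic axis; grey control, orange 4 Hz, bar at the median of 6) for 4 endoplasmic reticulum genes, 4 cytosolic heat shock genes and 4 early genes, separated by dotted lines. The groups do not overlap for any of the 12 genes: the first 4 and Arc and Junb are higher at 4 Hz, and the 4 heat shock genes, Fos and Egr1 are lower.

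Activity-induced early genes were more often lower than higher. Of 29 tested 12 were lower and 4 higher (median -0.34), beside 9.61% lower and 10.5% higher over all genes. Fos, a subunit of AP-1, went from 21.8, 27.4 and 37.6 to 4.74, 5.93 and 7.86 CPM (-2.26 ± 0.27, edgeR adjusted p = 7.5e-07). Egr1, a zinc finger factor induced by the same signals, went from 227, 258 and 356 to 107, 123 and 130.4 CPM (-1.18 ± 0.13), and the nuclear receptor Nr4a2 changed by -1.71 ± 0.33. The phosphatases Dusp1, Dusp4, Dusp5 and Dusp6, which switch off MAP kinases, were all lower, at -1.46, -0.75, -0.68 and -1.19. Higher members were Arc, from 24.7, 35.4 and 47.7 to 79.6, 109 and 152 CPM (1.64 ± 0.18), Junb (0.94 ± 0.15), Klf10 (0.94 ± 0.13) and Nr4a3 (0.85 ± 0.16). With the covariate 4 of the 16 calls were kept, with Egr1 at -1.06, Dusp1 at -1.08 and Arc at 1.0. The time from the last light session to lysis is not given in the sources used here.

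Growth factor and mechanical signalling genes changed in both directions, beside 10.5% higher and 9.61% lower over all genes. Ccn1, a matrix protein and target of YAP, was among the most reduced abundant genes, from 311, 383 and 425 to 71.4, 79.9 and 133 CPM (-2.11 ± 0.18, edgeR adjusted p = 2.5e-08), and it kept its call with the covariate (-1.30). Ccn2 was lower (-0.68 ± 0.16) and overlapped between the groups. Of the 13 tested genes of the YAP list 3 were higher and only Ccn1 and Ccn2 lower. In the insulin-like growth factor system the adaptors Irs2, from 40.1, 47.2 and 64.9 to 13.2, 17 and 27.2 CPM (-1.40 ± 0.15), and Irs1 (-0.72 ± 0.11) were lower, and the binding proteins Igfbp4 (1.44 ± 0.24) and Igfbp5 (0.98 ± 0.15) higher. All sheets were grown in medium with IGF-1. With the covariate, Ccn1 was the only call kept in the YAP list and Irs2 the only 1 in the insulin-like growth factor list. Of 19 genes in the myostatin, activin and TGF-beta list 5 were higher, with the activin subunit Inhbb at 1.6 ± 0.30 and Bmp4 at 0.93 ± 0.16. In the Wnt list 6 of 14 were higher and Dkk2 lower (-1.39 ± 0.41), with Sfrp2 (2.05 ± 0.49) and Dkk3 (1.37 ± 0.36) higher at 0.531 to 2.23 and 1.49 to 5.53 CPM. In the neuregulin and ErbB list 2 of 9 were higher and 2 lower. Nrg1, the neuregulin that signals through ErbB receptors, changed by 1.61 ± 0.22, Egfr by 1.27 ± 0.21 and the ligand Btc by -1.56 ± 0.29. None of the calls in the TGF-beta, Wnt and ErbB lists was kept with the covariate. On log2(TPM + 1) 3 Wnt genes were called higher and 1 lower.

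In the list of myokines and cytokines 9 of 22 tested genes were higher and 2 lower, where 10.5% and 9.61% of all genes were. The 9 include Musk, a receptor kinase and not a secreted factor. Csf1, the macrophage growth factor, went from 38.1, 46.7 and 57.8 to 117, 149 and 203 CPM (1.70 ± 0.16) and was the only 1 of the 11 called genes to keep its call with the covariate (1.27, edgeR adjusted p = 0.0069). Lif changed by 1.42 ± 0.24, Fgf21 by 1.23 ± 0.20, Il15 by 1.15 ± 0.26 and Vegfa by 0.71 ± 0.13. Bdnf (-0.52 ± 0.16) and Dcn (-0.59 ± 0.17) were lower. Il6 was not called, at 1.5 to 3.35 CPM in control and 1.38 to 2.65 CPM at 4 Hz, and Fndc5, the precursor of irisin, stood at 0.38.

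Nuclear genes for the respiratory chain shifted together by a small amount. Of 75 tested subunits 21 were higher and none lower, with a median of 0.44, and 43 of the 75 had all 4 Hz libraries above all controls, where 16.6% of all genes had groups apart in either direction. The muscle isoforms of cytochrome oxidase led the list: Cox8b went from 22, 26.1 and 31.2 to 46.9, 61.8 and 88.9 CPM (1.28 ± 0.15) and Cox6a2 changed by 1.06 ± 0.16. With the covariate 8 of the 21 calls were kept. The count rests on the scale: on log2(TPM + 1), where the median of all genes was -0.16, 9 subunits were called higher, and the list median stood 0.39 above that of all genes. The mitochondrial ribosome and import list had 5 of 53 higher (median 0.22), near the 10.5% of all genes, led by Mrps28 (0.98 ± 0.18), and kept 1 of its 5 calls.

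Genes of the mitochondrial genome were less uniform. Of 15 tested 6 were higher and 1 was lower. The higher ones were mostly complex I subunits: mt-Nd1 went from 732, 1066 and 1188 to 1217, 1837 and 3279.6 CPM (0.97 ± 0.21) and mt-Nd6, the subunit encoded on the light strand, from 21.6, 32.6 and 41 to 55.6, 99.9 and 239.5 CPM (1.88 ± 0.30). The cytochrome oxidase subunits mt-Co1 (0.50), mt-Co2 (0.01) and mt-Co3 (-0.11) were not called. The 12S ribosomal RNA mt-Rnr1 was lower, from 795, 1232 and 1790.1 to 244, 513 and 758 CPM (-1.25 ± 0.30), in the direction of the nuclear ribosomal RNA. None of the 7 calls was kept with the covariate, and on log2(TPM + 1) 2 were higher and 2 lower. The share of all mitochondrial counts ranged from 1.80% to 4.71% over the 4 Hz libraries and from 2.01% to 3.19% over the controls.

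Cytosolic ribosomal proteins were higher in 10 of 78 genes, a share near the 10.5% of all genes, and lower in none, with a median of 0.30. Rpl36 changed by 0.74 ± 0.18 and Rps18 by 0.69 ± 0.11, and 3 of the 10 calls were kept with the covariate. On log2(TPM + 1) none of the 78 was called in either direction with limma, and the list median stood 0.27 above that of all genes. The number of higher genes after leaving out 1 library ranged from 6 to 18.

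Energy metabolism outside the respiratory chain held some calls in each list, where 10.5% of all genes were higher and 9.61% lower. Of 29 glycolysis and glycogen genes 4 were higher and 1 lower (median 0.12, which turned to -0.07 on log2(TPM + 1)). The higher ones included the muscle forms Pgam2, from 39.8, 54.1 and 75.7 to 106, 111 and 146 CPM (1.12 ± 0.15), and Eno3 (0.91 ± 0.11), and Txnip, which restrains glucose uptake, was lower (-0.74 ± 0.17). Among fatty acid oxidation and citrate cycle genes 6 of 32 were higher, led by the fatty acid transporter Cd36, from 30.4, 37.0 and 41.4 to 68.9, 99.6 and 128 CPM (1.5 ± 0.21), and by Fabp3 (0.88 ± 0.11). Of the creatine kinase, myoglobin and adenylate enzyme list 3 of 11 were higher, including Car3 (0.85 ± 0.18) and the mitochondrial creatine kinase Ckmt2 (0.71 ± 0.09). The AMP deaminases Ampd1 (-1.13 ± 0.33) and Ampd3 (-0.71 ± 0.09) were lower. Cholesterol and fatty acid synthesis had 3 of 30 higher, again near 10.5%, with Dhcr7 at 0.76 ± 0.12, and Srebf1 lower (-0.51 ± 0.14). The covariate fit kept 1 of 5 glycolysis and glycogen calls, 1 of 6 fatty acid oxidation calls, 2 of 5 in the creatine kinase list and 0 of 4 in cholesterol synthesis.

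Matrix and adhesion genes rose in part, beside 10.5% higher and 9.61% lower over all genes. Of 17 tested collagen chains 7 were higher and 1 lower (median 0.47). The paired chains of collagen VI led: Col6a1 went from 29.2, 38.2 and 62.8 to 59.5, 107 and 186 CPM (1.46 ± 0.27) and Col6a2 changed by 1.48 ± 0.27, while the third, Col6a3, was not called at -0.49. The fibrillar chains Col1a1 (0.43), Col1a2 (0.13) and Col3a1 (0.28) were not called either. No collagen call was kept with the covariate, and on log2(TPM + 1) 2 collagen chains were called higher and 1 lower. Leaving out 1 library gave 6 to 10 higher and 0 to 3 lower chains. In the laminin, integrin and dystrophin list 9 of 26 were higher, with Itgb1bp2 (melusin), which binds the integrin tail in muscle, from 19.5, 32.1 and 42.5 to 96.2, 108 and 122 CPM (1.78 ± 0.21), and Dmd (dystrophin) at 1.37 ± 0.25. Lama4 was lower (-1.30 ± 0.29). Matricellular genes were 6 higher and 5 lower of 22, with Bgn at 0.87 ± 0.15 and Thbs2 at -1.20 ± 0.27, and none of these 11 calls was kept with the covariate. Among matrix proteases and inhibitors Mmp2, the gelatinase, was higher (0.96 ± 0.16), and the scarce Mmp10 was lower (-2.79 ± 0.71, 1.13 to 3.49 CPM in control against 0.106 to 0.542 CPM at 4 Hz). Of the laminin, integrin and dystrophin calls 3 of 10 were kept with the covariate, and of the protease calls 0 of 5. On log2(TPM + 1) 5 laminin, integrin and dystrophin genes were called higher and 3 lower.

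Protein breakdown showed few calls beside the 20.1% called in either direction over all genes. In the NRF2, p53, cell cycle and clock lists the share called was not below that of all genes. Of 33 proteasome subunits 1 was lower and none higher, of 28 autophagy and lysosome genes 1 was lower and none higher, and of 17 atrophy ligases and FoxO genes 1 was higher and 1 lower. The called ones were Psmd3 (-0.51 ± 0.12), Npc1 (-0.52 ± 0.06), Asb2 (1.21 ± 0.17) and Traf6 (-0.64 ± 0.10). Glutathione and NRF2 genes divided into 5 higher and 3 lower of 22, with Gsta4 at 0.78 ± 0.09 and the glutathione reductase Gsr at -0.96 ± 0.11. The p53 targets had 2 higher and 3 lower of 19, hypoxia genes 2 and 1 of 19, and interferon-stimulated genes 0 and 2 of 15. In hypoxia Vegfa (0.71 ± 0.13) and Car9 (0.50 ± 0.14) were the higher pair. Cell cycle genes had 6 higher and 4 lower of 38: Mki67 (1.28 ± 0.46) and Ccna2 (1.25 ± 0.45) were higher at 0.684 to 5.23 and 1.22 to 4.06 CPM, and the replication licensing genes Mcm5 (-1.01 ± 0.28) and Mcm4 (-0.68 ± 0.10) lower. Leaving out 1 library gave 3 to 6 higher cell cycle genes, with 3 without control replicate 3 or 4 Hz replicate 3 or 6, and none of the 10 calls was kept with the covariate. The clock list had 3 higher and 1 lower of 19, with Npas2 at -1.93 ± 0.43. With the covariate 2 of the 8 NRF2 and glutathione calls and the Npc1 call were kept, and none in the proteasome, atrophy, p53, hypoxia, interferon and clock lists. For the proteasome, autophagy, p53, hypoxia, interferon, cell cycle and clock lists the medians lay between -0.11 and 0.14, and the sign of each changed on log2(TPM + 1) or with the covariate.

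The next 3 lists held some calls each, where 20.1% of all genes were called in either direction. Of 13 Notch pathway genes 2 were higher, the modifier Lfng (0.86 ± 0.20) and Hes6 (0.58 ± 0.11). Of 22 splicing regulators 1, Rbfox1, was higher (1.86 ± 0.29, 0.697 to 1.51 CPM in control and 3.39 to 5.47 CPM at 4 Hz) and 2, Clk1 (-0.55 ± 0.14) and Srsf1 (-0.57 ± 0.16), were lower. Of 19 small nucleolar RNA host genes 2 were higher and 3 lower, with Snhg7 going from 24.8, 42.1 and 47.9 to 7.01, 10.8 and 13.4 CPM (-1.92 ± 0.24). None of the calls in these 3 lists was kept with the covariate.

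Among the genes with the largest differences at 10 CPM or more, the higher side held Cxcr4, the receptor of the chemokine Cxcl12, from 7.67, 9.05 and 9.89 to 25.2, 28.3 and 38.6 CPM (1.72 ± 0.19). It also held C1qtnf3, a secreted C1q-family protein (1.69 ± 0.17), Inpp4b, a phosphoinositide phosphatase (1.87 ± 0.24), and Pdgfrb, a growth factor receptor of mesenchymal cells (1.81 ± 0.34). Pdgfrb was the only 1 of 6 tested fibroblast markers that was called. Rps18-ps4 (3.06 ± 0.37) is a pseudogene of Rps18 and may take reads from it, so its value is uncertain. The lower side held the neurofilament genes Nefl, from 37.1, 49.9 and 132 to 5.15, 7.17 and 11.8 CPM (-2.98 ± 0.39), and Nefm (-1.97 ± 0.35), with 1 control library far above the others in each. Without that library the change was -2.59 for Nefl at 4 Hz and -1.54 for Nefm at 4 Hz. It also held Nos2, the inducible nitric oxide synthase, from 85.0, 111 and 129 to 18.3, 29.7 and 35.1 CPM (-1.94 ± 0.25), Apol9b (-1.81 ± 0.25) and Tlcd2 (-1.77 ± 0.21). Nos2 kept its call with the covariate (-1.83, edgeR adjusted p = 0.025), whereas Nefl did not (-1.55, adjusted p = 0.11). In total 599 higher and 404 lower called genes at this level had groups that did not overlap, from which the 12 largest each way were drawn. Of the adipocyte markers 3 of 10 were tested and 2 were higher, Medag and Cebpa (0.66 ± 0.15). The summed level of the 10 was 65.9 to 75.1 CPM in control and 121 to 262 CPM at 4 Hz. Most of that rise was Medag alone, at 36.2 to 43.9 CPM in control and 85.3 to 237 CPM at 4 Hz. Of 3 tested osteoblast and chondrocyte markers none was called, and of 9 tested markers of undifferentiated myoblasts 2 were higher and 1 lower. Leaving out 1 library gave 0 to 2 higher and 0 to 1 lower myoblast markers.

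The direction of change went with the kind of transcript. Of 11986 protein-coding genes 10.6% were higher and 8.64% lower, and of 698 long noncoding RNAs 10.9% were higher and 27.2% lower. Within the long noncoding RNAs those with 1 or 2 exons were lower in 35.4% of 316 genes (median -0.40) and those with more exons in 20.4% of 382 (median -0.08). Protein-coding genes showed the same step, with 20.1% of 861 genes with 1 or 2 exons lower against 7.76% of 11125 with more. Of the 364 processed pseudogenes 5.49% were higher and 2.20% lower. The calls also differed by level: of the 2664 genes with the lowest mean CPM 17.3% were lower, and of the 2664 with the highest 3.30%. The 2661 genes with the shortest transcripts (96 to 1675 bases) had the highest median, 0.12, and 13.8% higher genes. With the small RNA share as covariate, 5 of the 698 long noncoding RNAs were lower and 5 higher. These are descriptions across genes, which are not independent replicates.

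The other frequencies share the 6 control libraries, so their differences from control are given side by side and were tested directly only between light groups. Between 4 Hz and 1 Hz, 399 genes (3%) differed, 212 of them higher at 4 Hz, and 411 genes differed with the small RNA share as covariate. Between 4 Hz and 10 Hz, 1460 genes (11%) differed, 751 of them higher at 4 Hz, but none of them was called once the small RNA share was a covariate (edgeR, 936 genes at an unadjusted p below 0.05). The contractile lists had medians at 1 Hz of 1.21 for myosin heavy chains, 0.60 for light chains, 0.59 for troponins and tropomyosins, 0.78 for actins and 0.63 for the Z-disc list. At 4 Hz they were 1.10, 0.89, 0.86, 0.82 and 0.67, and at 10 Hz 0.26, 0.25, 0.34, 0.15 and 0.19. No member of these 5 lists was called between 4 Hz and 1 Hz, and 7 of 8 myosin heavy chains were higher at 4 Hz than at 10 Hz.

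Early genes and the mitochondrial genome were the lists with the largest share of members called between 4 Hz and 1 Hz. Of 29 early genes 13 were lower at 4 Hz than at 1 Hz and 1 was higher, with list medians of -0.34 at 4 Hz and 0.15 at 1 Hz. Fosb is an example, with -0.83 at 4 Hz and 0.83 at 1 Hz over control, and a direct difference of -1.66 (edgeR adjusted p = 1.0e-05). Arc stood at 1.64 at 4 Hz and 2.31 at 1 Hz over control, a direct difference of -0.67 (edgeR adjusted p = 0.012). Of 15 mitochondrial genome genes 6 were higher at 4 Hz than at 1 Hz, with medians of 0.44 and -0.30 over control. For the nuclear respiratory subunits the medians were 0.44 and 0.13, and 2 of 75 were higher at 4 Hz than at 1 Hz in the direct test.

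**Figure D5:**
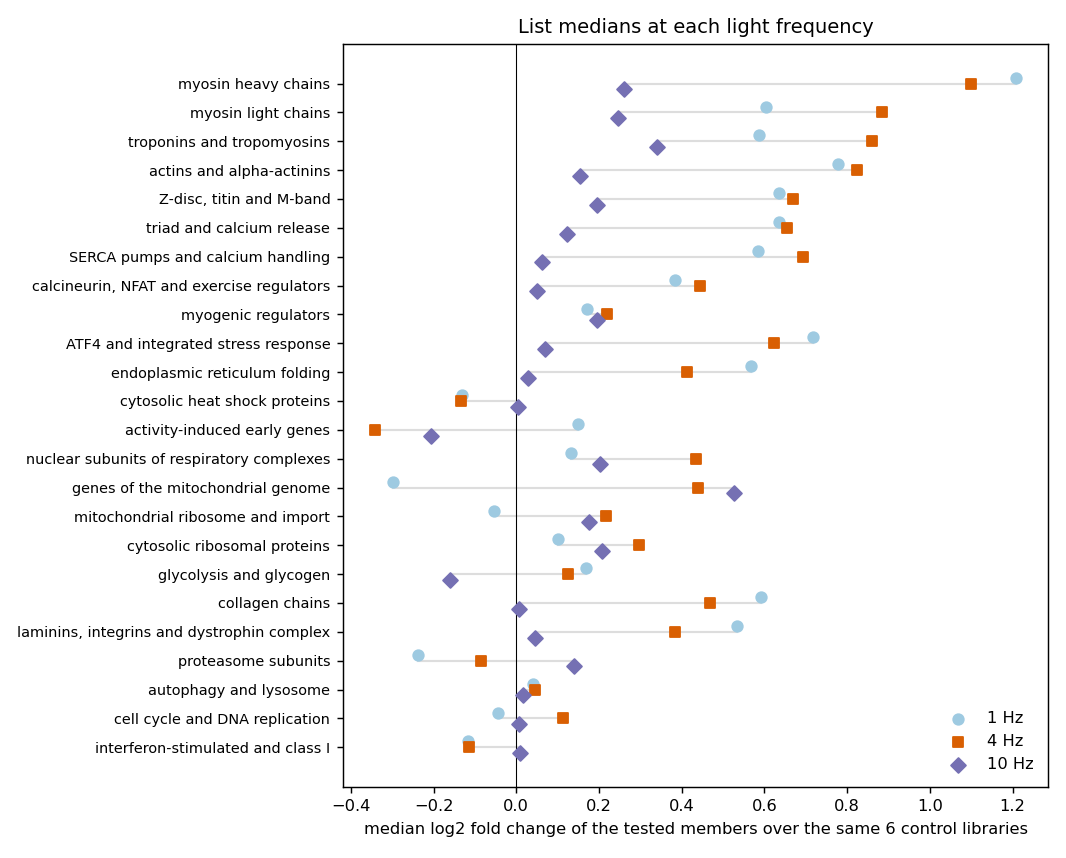
Median log2 fold change over the same 6 control libraries for the tested members of 24 gene lists, at 1 Hz (circles), 4 Hz (squares) and 10 Hz (diamonds). The 4 Hz median is below that at 1 Hz for myosin heavy chains (1.10 and 1.21) and above it for myosin light chains (0.89 and 0.60). It is on the opposite side of 0 for early genes and the mitochondrial genome. By less it is also opposite for mitochondrial ribosome and import (0.22 and -0.05) and cell cycle and DNA replication (0.11 and -0.04).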

How the data were processed

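RNA was measured in 24 libraries of ChR2::tdTomato C2C12 muscle, 6 per condition, which the study's methods call biological replicates. The deposited tables hold estimated counts and TPM per gene, which the authors made with Salmon. The submitters' processing notes also name STAR, BWA 0.7.12-r1039 and bedtools 2.25.0, and the builds mm10, hg19 and GRCm39, without saying which served which step. Of the deposited estimated counts 6.62% to 10.6% per library were not whole, and all were rounded.

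The counts were fitted with edgeR 4.0.16 (R 4.3.3): TMM scaling, filterByExpr by condition, and a quasi-likelihood fit with condition as the only factor over all 24 libraries. Of 56941 genes 13318 were tested, which hold 99.8% of the counts. Calls needed a Benjamini-Hochberg adjusted p under 0.05 together with a change of over 0.5 in either direction on the log2 scale. The standard error is the fold change divided by the root of its F statistic. Adjusted p-values in the text are from edgeR unless a permutation test is named. Composition shares were compared with 2-sided exact permutation tests over the 12 libraries, adjusted over the 7 measures. Totals of 4.20 to 11.5 M counts set the precision, and intervals cover counting error only.

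Genes were named as the 12 largest changes each way at a mean of 10 CPM or more with groups that did not overlap, and as the 2 largest called changes each way per list; further members were named after their values were seen. The members and gene lists were chosen with earlier results of these data known. Lists are described by counts and medians without a set test. Alternatives were DESeq2 1.42.0 with and without apeglm 1.24.0, limma 3.58.1 on log2 TPM with pseudocounts of 1 and 0.1, other scalings and filters, thinning to equal totals, a replicate block, the small RNA share as covariate and leaving out each library. Several of the fits were run on simulated counts with known changes. The covariate in that run was an arbitrary series that did not separate the groups, unlike the small RNA share. It therefore cannot show how the covariate fit performs on these data. Promoters came from RefSeq (GRCm38.p6) and transcripts from GENCODE M39 (GRCm39).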

Additional observations from a re-analysis of the deposited data

Results flagged for a closer look

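In 6 of the 62 groups of 6 libraries examined, 1 library stood far from the others by Dixon's test at the 95% level; chance alone flags about 1 in 20 groups. At 4 Hz, replicate 3 had the highest share of small RNAs without a tail, 50.93 CPM against 30.01 CPM in the next library. Replicate 6 had the highest Cxcr4 (38.6 against 29.25 CPM) and replicate 2 the highest Ccn1 (133.2 against 93.84 CPM). Among the controls, replicate 6 had the highest Nefl (131.8 against 53.2 CPM) and Nefm (109.9 against 53.9 CPM), and replicate 2 the lowest Snhg7 (24.82 against 39.34 CPM).

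Of the 24 genes with the largest changes, several also differed between light frequencies in the direct edgeR test. Against 1 Hz, the log2 difference at 4 Hz was 1.23 for mt-Nd6 (adjusted p = 0.00653), 0.51 for C1qtnf3 (adjusted p = 0.0424), -1 for Fos (adjusted p = 0.0171), -1.04 for Ccn1 (adjusted p = 0.000481) and -1.46 for Nos2 (adjusted p = 0.000512).

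Against 10 Hz, 22 genes differed with adjusted p-values of 1.1e-05 to 0.0325. Higher at 4 Hz were Medag (1.66), Pdgfrb (1.44), Car6 (1.29), Nfatc1 (1.25), Inpp4b (1.22), Cxcr4 (0.91), C1qtnf3 (0.83), Kcnk13 (0.78), Csf1 (0.64) and Itgb1bp2 (0.58). Lower at 4 Hz were Nefl (-2.53), Hspa1a (-2.47), Rn7sk (-2.46), Snhg7 (-2.07), Nefm (-1.87), Rn18s-rs5 (-1.79), Hspa1b (-1.6), Apol9b (-1.4), Tlcd2 (-1.27), Nos2 (-1.26), Fos (-1.25) and Ccn1 (-0.93). With the small RNA share as covariate no gene was called between 4 Hz and 10 Hz.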

How the results depend on the processing

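Of 156 named genes none turned and at most 16 lost the call under any alternative other than the covariate, among those each alternative tested (129 to 156). Under the covariate 28 kept direction and call, 121 lost the call and 7 turned: Rn7sk (0.162), Rn18s-rs5 (0.234), Dkk2 (0.185), Mcm5 (0.091), Per2 (-0.122), Clk1 (0.009) and Malat1 (0.27). Rn7sk and Rpph1 are among the small RNAs summed in the covariate, so their values in that fit are in part set by its construction. The covariate left 130 higher genes, 84 lower, and 0 between 4 Hz and 10 Hz, whereas 411 differed between 4 Hz and 1 Hz.

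Higher genes (1396) numbered 671 on log2(TPM + 1), 750 on log2(TPM + 0.1), 655 on log2(TPM + 1) without a filter and 2558 by adjusted p alone. Lower genes (1280) numbered 2064, 2311, 2131 and 2693 in the same order, and 805 at a mean of at least 5 CPM. Scaling by total count gave 1012 higher and 1821 lower. Genes different between 4 Hz and 1 Hz (399) numbered 1634 by adjusted p alone. Those between 4 Hz and 10 Hz (1460) numbered 3037 by adjusted p alone, 927 at a mean of at least 5 CPM and 882 on log2(TPM + 1) without a filter. The cause of these shifts was not tested.

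As a share of TPM the log2 difference was -0.545 for nuclear long noncoding RNA (adjusted p = 0.0568), -0.025 for noncoding genes and -0.015 for mitochondrial genes. Leaving out each library in turn gave 1308 to 1523 higher and 1140 to 1403 lower genes, 307 to 528 between 4 Hz and 1 Hz and 1221 to 1726 between 4 Hz and 10 Hz. The shares ranged from -2.492 to -2.215 for small RNAs, -2.243 to -1.883 for ribosomal RNA, -0.741 to -0.566 for nuclear long noncoding RNA, -0.282 to -0.154 for histones, 0.055 to 0.105 for noncoding genes (past the threshold without 4 Hz replicate 2, adjusted p = 0.0364) and -0.045 to 0.232 for mitochondrial genes (turned without 4 Hz replicate 5), and the total count from 0.617 to 0.79.

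Replicate numbers did not pair the samples (correlations of deviations -0.0889, -0.0517, 0.0741, -0.11, 0.0146 and -0.184), and the replicate block gave 1390 higher and 1278 lower genes.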
